A study of Aquilaria sinensis with 2 samples.

Results

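The ACC oxidase cluster of *Aquilaria sinensis*, the tree that forms agarwood in wounded stems, comprised 4 unigenes, and its transcripts were far less abundant in the wounded than in the healthy stem library. A unigene is an assembled transcript sequence, and the 4 were all the entries whose identifier begins with Zhang_Cluster64407.seq, of 89137 unigenes in all. They were Zhang_Cluster64407.seq.Contig1, Zhang_Cluster64407.seq.Contig2, Zhang_Cluster64407.seq.Contig3 and Zhang_Cluster64407.seq.Singlet1, named below by the last part of the identifier. The name rests on the study's lists, which give 1-aminocyclopropane-1-carboxylate (ACC) oxidase 3 of *Petunia hybrida*, *ACO3*, as the closest match of Contig1 and carry the name *ACO3* on the primer pair of Contig2. Contig3 and Singlet1 have no match of their own in these lists, and they were counted with the others because the clustering placed them together by sequence similarity. The counts carry no annotation and no genomic position, so the label could not be checked against the sequences, and the labelled tissue could not be checked against marker genes.

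The W (wounded) library came from stems of 3-year-old trees that were pruned with a knife. Tissue 6 cm under the cut was collected repeatedly between 2 h and 5 d. Equal parts of every collection went into W, so a change with time could not be read from it. The H (healthy) library came from stems cut from unpruned trees of the same age, and the stems of each condition were pooled into 1 library. Reads of both libraries were obtained by GS-FLX pyrosequencing of amplified cDNA in 1 run and assembled together.

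ACC oxidase catalyses the last step of ethylene synthesis in plants, the conversion of ACC to ethylene, after ACC synthase has made ACC from S-adenosylmethionine. Ethylene is a gaseous hormone that is formed on wounding, in ripening fruits and in ageing tissues of many plants, and ACC oxidases usually belong to small gene families whose members are expressed in different organs and conditions. In *Arabidopsis thaliana*, ethylene is bound by receptors such as ETR1, which are switched off by it, and the signal reaches the nucleus through EIN3, a transcription factor that EBF proteins mark for degradation in the absence of the hormone.

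The primer pair the study designed for Contig2 is shown because it ties the name *ACO3* to 1 of the 3 contigs. Both primers are written 5′ to 3′ in lower case, with the 5 bases at the 3′ end, where extension starts, in capitals.
ACO3 forward primer: catcttgctcttccaggACGAC
ACO3 reverse primer: ctgtttgttctcctcCGCCA
The forward primer had 22 bases, 54.5% of them G or C, and the reverse primer had 20 bases with 55.0% G or C. Whether they also match Contig1 or Contig3 was not tested.

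The counts summed to 423466 reads in W and 432265 in H. A level is given in RPM, reads per 1000000 reads in unigenes, and a ratio divides the level in W by that in H. With 1 library per condition no difference has a replicate check. In the study, real-time PCR (RT-PCR) of *ACO3* is given for calli, cultured from stems, where methyl jasmonate raised it. That is another tissue and treatment, and for wounded stems the study shows no RT-PCR of *ACO3*. Genes of agarwood sesquiterpene synthesis (*HMGR*, *FPS* and the synthases) are reported with more RNA in wounded stems by RT-PCR but fewer reads in W. The study labels the wounded stems of that RT-PCR as 5 d after pruning, whereas W mixes collections from 2 h to 5 d. *DXPS*, another gene of this synthesis that was raised by RT-PCR, is reported with similar reads in both libraries. The chi-square test used for single unigenes compares the 2 libraries, not the conditions, and all 95% intervals cover counting error only, since reads of amplified cDNA without molecular identifiers are not independent molecules. Intervals of levels, shares and ratios are exact binomial (Clopper-Pearson), those of the difference between 2 unigenes or genes are conditional odds-ratio intervals of Fisher's test, and a count of 0 is given a limit of 3 reads. The median log2 ratio of the 16286 unigenes that had reads in each library and 10 or more in total was 0.17, slightly above equal levels.

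Contig3, the longest of the 4 at 1383 bp, had 135 reads in W and 2867 in H. These were 319 RPM in W (95% interval 267 to 377) and 6633 in H (6393 to 6879). It was the most abundant of all unigenes in H and the one with the most reads over both libraries, 3002. In W it ranked 160, in a tie of 4 unigenes. Its level was 20.8-fold lower in W, with an interval of 17.5 to 24.9 (log10 of P = -531.5, chi-square test).

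Contig1, of 1266 bp and with the *ACO3* match, had 49 reads in W and 834 in H. Its level was 116 RPM in W (85.6 to 153) and 1929 in H (1801 to 2065), and it ranked 999 in W, in a tie of 30 unigenes, and 6 in H. The share was 16.7-fold lower in W, with an interval of 12.5 to 22.7 (log10 of P = -149.7, chi-square test). Contig2, of 1329 bp and with the *ACO3* primers, had 68 reads in W and 806 in H. Its level was 161 RPM in W (125 to 204) and 1865 in H (1738 to 1998), with rank 589 in W, in a tie of 16, and 7 in H. The share was 11.6-fold lower in W, the smallest change of the 3 contigs, with an interval of 9.06 to 15.1 (log10 of P = -133.7, chi-square test). For each contig the intervals of the 2 libraries lay far apart. In stem pools such as these, fewer cells that express a gene and less of its RNA per cell cannot be told apart.

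Singlet1 was a sequence of 66 bp with 0 reads in W and 1 read in H. A count of 0 allows up to 7.08 RPM in W, above the 2.31 of H, so no difference was detectable at this depth (P = 0.322, chi-square test), and no fold is given. Its length was below the minimum of 100 bp that reads had to reach before assembly, as were the lengths of 924 unigenes in all (1.04%). The contigs, by contrast, were longer than 90.5% to 92.5% of the unigenes, whose median length was 536 bp.

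**Figure D1:**
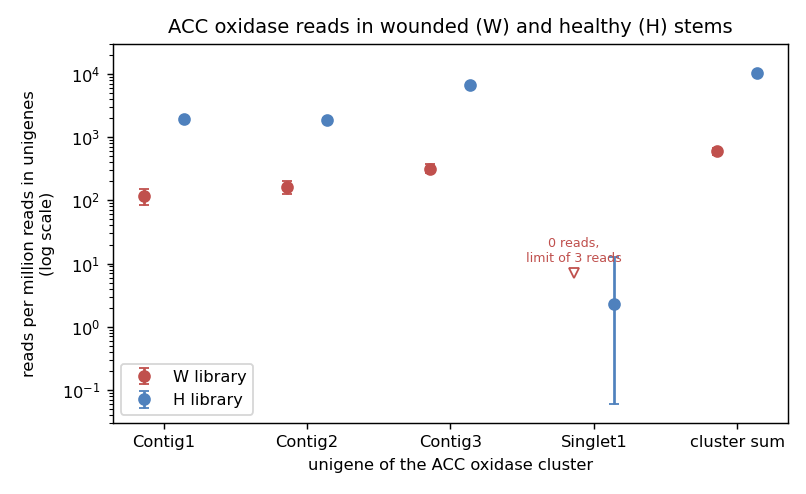
Level in RPM, reads per 1000000 reads in unigenes (log scale), for the 4 unigenes of the ACC oxidase cluster and their sum, in the W library (red, left) and the H library (blue, right), with exact 95% intervals of counting error. The open triangle marks the limit of 3 reads for Singlet1 in W, which had 0 reads. The 3 contigs lie between 116 and 319 in W and between 1865 and 6633 in H.

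Of the 4 unigenes, 3 thus had a lower share in W at the threshold of 0.01 of the chi-square test, 0 had a higher share and Singlet1 did not pass. Over all unigenes 2.55% were lower by this rule, 1.84% were higher and 4.4% differed in either direction. The contigs had 874 to 3002 reads over both libraries, and the share of unigenes that were lower grew with the read number. It was 26.3% of the 1037 unigenes with at least 100 reads, 52.4% of the 42 with at least 500 and 69.2% of the 13 with at least 800, the 3 contigs included. Those that were higher numbered 255 of the 1037, 16 of the 42 and 3 of the 13. With P adjusted by the Benjamini-Hochberg method across the 89137 unigenes, the 3 contigs passed at 0.01, and 1.16% of all unigenes were lower. Among the unigenes with a lower share in W, Contig3 had the smallest P, and Contig1 and Contig2 stood at ranks 5 and 8.

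Summed over its unigenes, the cluster had 252 reads in W and 4508 in H. It took 0.0595% of the reads in W (95% interval 0.0524 to 0.0673) and 1.04% in H (1.01 to 1.07), or 1 read in every 1680 in W and 1 in every 95.9 in H. Summing removes any uncertainty in how reads of similar sequence were divided among its unigenes. Of 63951 clusters, the sequences grouped by similarity, it had the most reads in H, ahead of a cluster of 7 unigenes with 2733 reads, and it ranked 199 in W. In H the 3 contigs were among the 10 most abundant unigenes and held 41.5% of the 10871 reads of these, whereas in W 0 of the 10 most abundant unigenes belonged to the cluster.

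The sum was 17.5-fold lower in W, with an interval of 15.4 to 19.97 (log10 of P = -813.9, chi-square test). Over all clusters 3.1% were lower at the threshold of 0.01. The drop came to 0.983 percentage points of the reads. It was the largest of all clusters, 1.58 times the next, and 2.90% of the 33.9 percentage points by which all clusters with a lower share in W dropped together. The largest rise of a cluster was 0.156 percentage points. Contig3 made up 64.2% of the drop of the cluster, Contig1 18.4% and Contig2 17.3%. Without Contig3, the cluster was 13.7-fold lower in W, with 117 reads in W and 1641 in H.

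Large decreases in W were more frequent than large increases among the most abundant unigenes, and the 3 contigs were set beside unigenes of similar read number. Of the 42 unigenes that had 500 or more reads in total, 13 were at least 10-fold lower in W, the 3 contigs included. On the same scale of log2 ratios with 0.5 reads added, 0 were at least 10-fold higher. Of the 39 such unigenes outside the cluster, 5 had a lower ratio than Contig3, 6 a lower one than Contig1 and 7 a lower one than Contig2. Of the 62 clusters with at least 1000 reads, 3 had a lower ratio than the ACC oxidase cluster. The drop in share was thus the largest of all clusters, whereas the fold decrease was not.

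**Figure D2:**
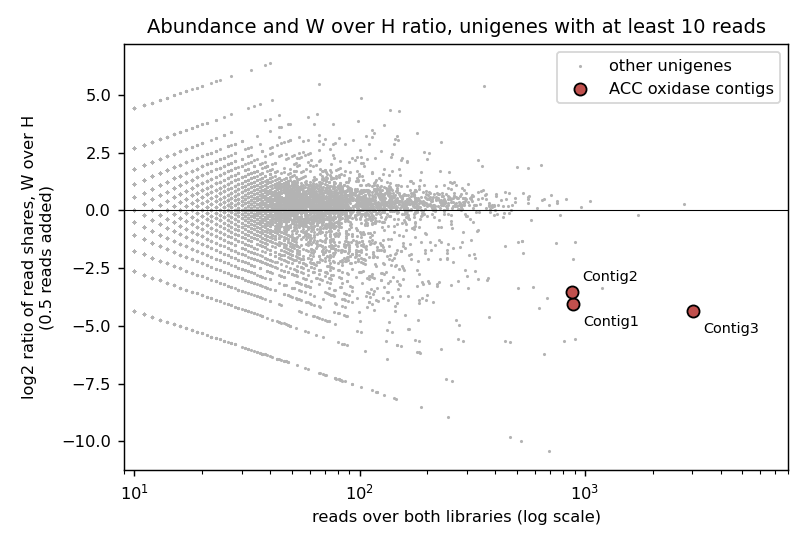
Log2 ratio of read shares, W over H, with 0.5 reads added, against the reads over both libraries (log scale), for unigenes with at least 10 reads. Each grey point is 1 unigene, and the red points are the 3 contigs of the ACC oxidase cluster, which lie at -3.53 (Contig2), -4.05 (Contig1) and -4.37 (Contig3). Contig3 is the point farthest to the right.

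Within the cluster Contig3 had the highest level in both libraries, by a wider margin in H. How reads were assigned to these similar sequences is not given in the sources used here, and every comparison between contigs rests on it. Per length, its level was 2.52 times that of Contig1 in W (95% interval 1.81 to 3.57) and 3.15 times in H (2.91 to 3.40). Against Contig2 it was 1.91 times in W (1.42 to 2.59) and 3.42 times in H (3.16 to 3.70). The levels of Contig2 and Contig1 per length did not differ beyond counting error in either library, with a ratio of 1.32 in W (0.902 to 1.95) and 0.921 in H (0.835 to 1.02). In RPM per kilobase of unigene, Contig1, Contig2 and Contig3 had levels of 91.4, 121 and 231 in W, against 1524, 1403 and 4796 in H.

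The division of the reads among the contigs also differed between the libraries. Contig2 held 27.0% of the cluster's reads in W (21.6 to 32.9) and 17.9% in H (16.8 to 19.03). Contig3 held 53.6% in W (47.2 to 59.9) and 63.6% in H (62.2 to 65.0). The share of Contig1 was 19.4% in W (14.7 to 24.9) and 18.5% in H (17.4 to 19.7). So the part of Contig2 was larger and that of Contig3 smaller in W, while the intervals of Contig1 overlapped.

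**Figure D3:**
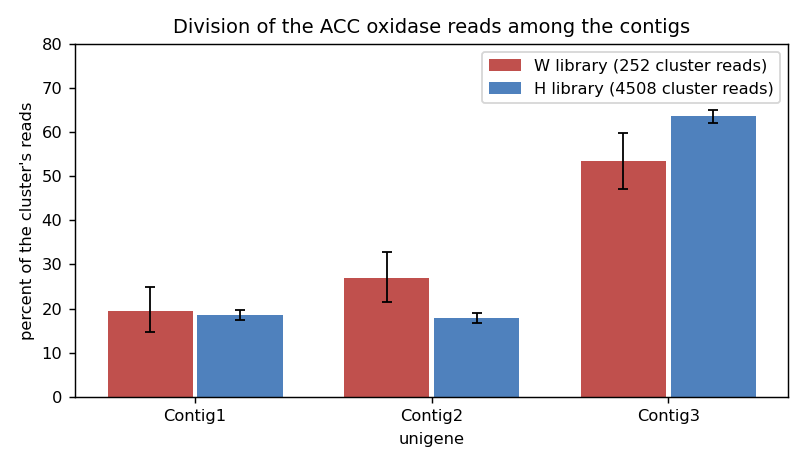
Percent of the cluster's reads held by each contig in the W library (red, left, 252 reads) and the H library (blue, right, 4508 reads). Bars start at 0, and the error bars are exact 95% binomial intervals. Contig2 stands at 27.0% in W and 17.9% in H, and Contig3 at 53.6% in W and 63.6% in H.

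The difference between members was tested on their reads alone, which does not depend on the library sizes but does on how reads were assigned. The share of Contig3 was lowered 1.79 times as much as that of Contig2 (95% interval 1.30 to 2.44, P = 2.64e-04, two-sided Fisher's exact test), and adjusted over the 6 pairs of members P was 0.00159. Contig3 and Contig1 differed by a factor of 1.25 (0.873 to 1.76, P = 0.207, Fisher's exact test). The ratio of Contig2 was 1.44 times that of Contig1 (0.967 to 2.15, P = 0.0688, Fisher's exact test). Neither of these passed, and their intervals leave room for factors up to 1.76 and 2.15. The 3 pairs with Singlet1 rest on 1 read and could not pass.

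Unequal ratios within a cluster were common among abundant clusters. Of the 1510 clusters with 2 or more unigenes of at least 10 reads, 13.8% had unigenes whose ratios differed at the threshold of 0.01 (chi-square test of heterogeneity), and of the 136 of these with at least 500 reads, 31.6%. For the ACC oxidase cluster P was 6.45e-04, and adjusted over the 1510 clusters it was 0.0102, just above the threshold, whereas with a minimum of 20 reads per unigene the adjusted P was 0.00818 over 849 clusters. The highest and lowest log2 ratios of its contigs lay 0.85 apart. This was less than in 1061 of the 1510 clusters, whose median was 1.45. The reading depended on depth, since with a minimum of 100 reads per unigene, which was added with the results known, the spread of the ACC oxidase cluster was above that of 79 of 118 clusters, with a median of 0.60.

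The 3 contigs shared 1 direction. In 57.5% of the 1510 clusters the unigenes lay on both sides of a log2 ratio of 0. Those in which every unigene was more than 8-fold lower in W numbered 27, the ACC oxidase cluster included, and those in which every unigene was more than 8-fold higher numbered 4. With a minimum of 100 reads per unigene, 28.0% of the 118 clusters lay on both sides, and in 9 of them, the ACC oxidase cluster included, every unigene was more than 8-fold lower. In 18 of the 1510 clusters the least lowered unigene had a lower ratio than Contig2, the least lowered contig here.

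**Figure D4:**
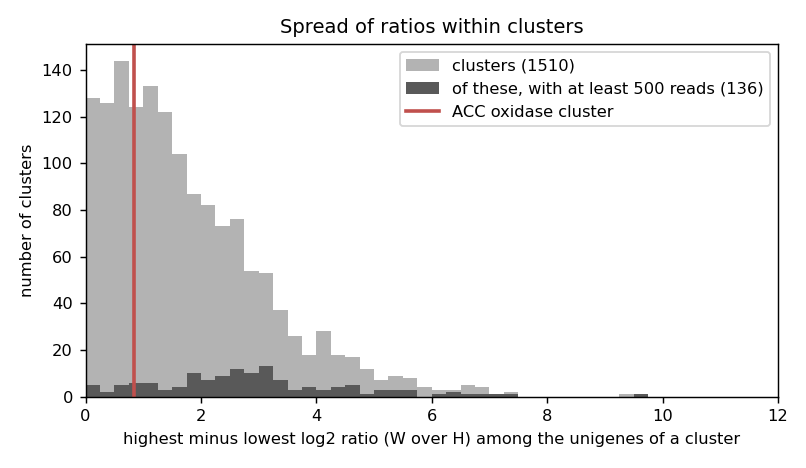
Number of clusters by the difference between the highest and lowest log2 ratio (W over H) of their unigenes, for 1510 clusters with 2 or more unigenes of at least 10 reads (light grey) and the 136 of these with at least 500 reads (dark grey). The red line marks the ACC oxidase cluster at 0.85, below the median of 1.45 over all 1510.

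Downstream of ethylene synthesis, the listed genes of ethylene perception and signaling showed no common change. The list held 4 clusters with 5 unigenes, of which 2 were lower in W, 0 were higher and 3 missed the threshold of the chi-square test, with a median log2 ratio of -0.94 against 0.03 over all unigenes. The study calls the regulators it tested by RT-PCR, these genes and *ACO3* among them, differentially expressed. The list was thus not drawn independently of these counts, unlike the unigenes it is set beside. The share that was lower was 2.55% of all unigenes and 11.5% of those with at least 10 reads, which 4 of the 5 listed unigenes had. Among unigenes with at least 100 reads, as *ETR1* had, it was 26.3%. The receptor *ETR1* (named for its match in *Malus domestica*) had 39 reads in W and 77 in H, a ratio of 0.517 (0.342 to 0.770). *ETR1* passed without adjustment (P = 6.31e-04, chi-square test) but not after adjustment over all unigenes, where P was 0.0325. *EBF*, the F-box protein that removes EIN3 in *A. thaliana*, had 14 reads in W and 11 in H (ratio 1.30, interval 0.548 to 3.16). The transcription factor *EIN3* had 84 reads in W and 93 in H (ratio 0.922, interval 0.678 to 1.25), and a second, short unigene of its cluster had 1 read in W and 3 in H. *ERF115*, a transcription factor named as ethylene-responsive, had 1 read in W and 84 in H (ratio 0.0122, interval 3.04e-04 to 0.0696, P = 5.16e-19, chi-square test).

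The list for jasmonate, another hormone of the wound response, held 2 unigenes, both with at least 10 reads, of which 1 was lower in W. Both came from the same regulators that the study calls differentially expressed. Of all unigenes with at least 10 reads 11.5% were lower, and of those with at least 100 reads, as *AOSC* had, 26.3%. *AOSC*, matched to allene oxide synthase, which acts early in jasmonate synthesis, had 18 reads in W and 174 in H (ratio 0.106, interval 0.0611 to 0.172, P = 1.03e-28, chi-square test). The jasmonate-induced protein *JAip* had 9 reads in W and 9 in H (ratio 1.02, interval 0.359 to 2.90). Of the 6 named genes *ETR1*, *ERF115* and *AOSC* were thus lower in W before adjustment, and *EIN3*, *EBF* and *JAip* did not pass the test. In the study's RT-PCR of calli, *EIN3*, *ERF115*, *AOSC* and *JAip* are named among the genes that methyl jasmonate raised most. *ETR1* and *EBF* are not among the few regulators it names as lowered.

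The decrease of the ACC oxidase cluster was set against each of these 6 named genes by Fisher's exact test on their reads, with P adjusted over the 6 comparisons, which were added after the data had been seen. The share of the cluster was lowered more than that of *ETR1* by a factor of 9.05 (5.87 to 13.8, adjusted P = 8.85e-20, Fisher's exact test). Against *EIN3* the factor was 16.1 (11.5 to 22.5, adjusted P = 8.46e-53, Fisher's exact test), against *EBF* 22.7 (9.47 to 55.9, adjusted P = 9.90e-12, Fisher's exact test), and against *JAip* 17.9 (6.22 to 51.3, adjusted P = 1.79e-07, Fisher's exact test). Against *AOSC* the factor was 1.85 (1.05 to 3.07) and did not pass at 0.01 (adjusted P = 0.0262, Fisher's exact test). Nor did the difference from *ERF115* pass, with a factor of 0.213, below 1 since *ERF115* had the lower ratio (0.00531 to 1.23, adjusted P = 0.132, Fisher's exact test).

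**Figure D5:**
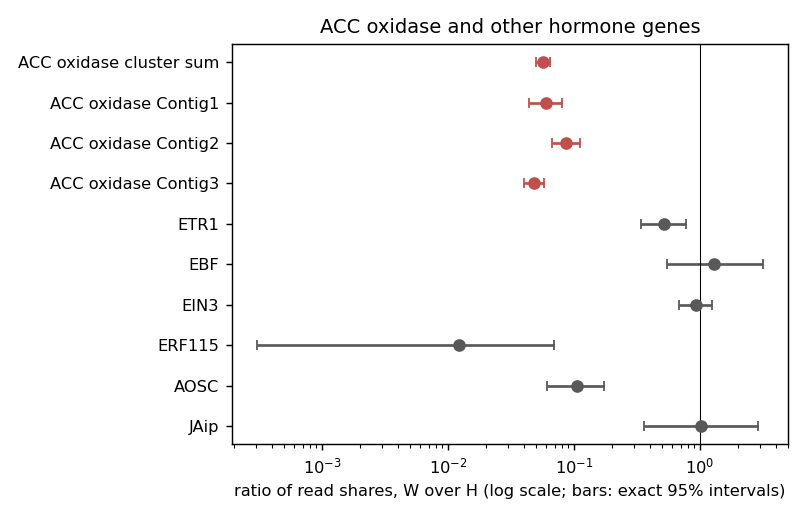
Ratio of read shares, W over H (log scale), for the ACC oxidase cluster sum and its contigs (red) and for 6 named hormone genes (grey), with exact 95% intervals. The vertical line marks a ratio of 1. The cluster sum at 0.0571 lies between *ERF115* at 0.0122 and *AOSC* at 0.106, while the intervals of *EBF*, *EIN3* and *JAip* include 1.

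The unigenes whose W over H ratio was most like that of the cluster sum (log2 ratio -4.13), among 39 outside the cluster with at least 500 reads, were Cluster63742.seq.Contig2 and Cluster64041.seq.Contig2. Cluster63742.seq.Contig2 had 31 reads in W and 597 in H, a log2 ratio of -4.22. Cluster64041.seq.Contig2 had 45 reads in W and 635 in H, a log2 ratio of -3.77. Of the 6 named genes, *AOSC* was nearest, with a log2 ratio of -3.21. This likeness covers 2 libraries, and the sources used here do not pair the first 2 unigenes with gene names.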

How the data were processed

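SMART cDNA from each library was amplified by 25 cycles of long-distance PCR and sequenced by the authors, who discarded reads under 100 bp, ran MIRA on both libraries jointly, grouped similar sequences with UIcluster and then used Cap3 within each group. How reads were assigned to similar unigenes is not given in the sources used here. The authors deposited whole read counts per unigene without normalization. They also deposited each count as RPM (labelled TPM, without length), which lay within 0.06 of the count plus 1 read, scaled to 1000000 by a constant, 543027 in W and 530434 in H, taken here as the high-quality reads. The counts used here were 78.0% (W) and 81.5% (H) of these.

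Each unigene and each cluster was compared by a chi-square test at P = 0.01, the kind of test and the threshold of the study's methods. Pearson's form without continuity correction and reads in unigenes as library size were chosen here. The quasi-likelihood test of edgeR needs replicates and could not be fitted. Members were compared by Fisher's exact test. The comparisons with single named genes and of levels per length were added after the data had been seen. The members and lists were chosen with earlier results of these data known. Named are the 4 members, the listed genes, and the 2 unigenes with at least 500 reads nearest in log2 ratio (0.5 reads added). A floor of 3 reads is 7.08 RPM of reads in unigenes in W and 6.94 in H. The tests were tested on simulated data of independent reads, which leaves out amplification and differences between pools. Alternatives were other library sizes (high-quality reads, median ratio, TMM, without the cluster), 1 read added, Yates' correction, Fisher's exact test, adjusted P, other read minimums and sums without a member. Tools were scipy 1.17.1, pandas 2.3.3 and numpy 2.4.6 in Python 3.11.15, edgeR 4.0.16 (TMM factors) in R 4.3.3, and matplotlib 3.10.9 for plots.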

Additional observations from a re-analysis of the deposited data

How the results depend on the processing

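The direction and the call of the 3 contigs and of the cluster sum held under every alternative run, that is other library sizes, 1 read added, Yates' correction, Fisher's exact test, Benjamini-Hochberg and Bonferroni adjustment and, for the sum, leaving out each member in turn. The fold by which the share was lower in W ranged from 13.7 to 20.1 for the sum, from 16.7 to 19.2 for Contig1, from 11.6 to 13.3 for Contig2 and from 20.8 to 23.9 for Contig3. The lowest value of the sum was the one without Contig3. The number of members lower in W was 3 in all alternatives, including a minimum of 10 reads. Scaling by the median ratio moved log2 ratios by 0.17 and TMM by 0.20, both toward lower values in W. The ratio of *JAip*, which did not pass the test, was 1.02 and turned to 0.977 when scaled by high-quality reads, 0.909 with the median ratio and 0.889 with TMM. The clusters whose unigenes differed numbered 208 with a minimum of 10 reads per unigene, 122 with a minimum of 20 and 21 with a minimum of 100, where fewer clusters were tested. Adjusted over the clusters tested, P of the ACC oxidase cluster was 0.0128 with a minimum of 5 reads and 0.00818 with a minimum of 20 (chi-square test). No paired analysis was possible because each condition has 1 library. The 135 reads or fewer of each contig in W limit the precision of the ratios, and differences in amplification or between pools of stems cannot be told apart from the condition.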
